A study of Mus musculus with 12 samples.

Results

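The transcriptome of control C18-4 cells was described from the 6 control libraries of a series of 12. C18-4 is an immortalized mouse line that is used as a model of spermatogonial stem cells, the germ cells of the testis from which sperm production is renewed. The 6 libraries were chosen by their labels alone. They form the group 3NC (3 libraries; cells given the lentiviral vector LV3 with a control short hairpin RNA) and the group 5NC (3 libraries; cells given the lentiviral vector LV5 without an insert). The labels name the strain as IRC mouse and the tissue as C18-4. Cells of both groups thus carried a lentiviral vector. The other 6 libraries, in which lncRNA5251 was knocked down or overexpressed, were not used. C18-4 is 1 cell line, and no source used here says that the 3 libraries of a group came from separate cultures, so the spread between them may be technical.

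Levels are given as RPKM, reads corrected for the length of the gene and the size of the library. Genes can therefore be compared with each other within a library. The question was which genes these cells use at what level when lncRNA5251 is left alone, and which of these levels hold in both control groups. A gene was called detected when it reached at least 1 RPKM in all 6 libraries. It was placed in the shared baseline when it was detected and the mean levels of 3NC and 5NC lay within a factor of 2 of each other. No test was made between the 2 groups. Where values stand in a pair, the first is the mean of 3NC and the second the mean of 5NC, and ± gives the SD over the 3 libraries of the group.

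Of 17576 genes listed, 10778 were detected (61.3%), 10418 were in the shared baseline (59.3%), and 6094 stayed under 1 RPKM in all 6 libraries (34.7%). A further 704 genes reached 1 RPKM in some libraries and not in others. Among the detected genes 360 lay outside the factor of 2, of which 148 had the higher mean in 3NC and 212 in 5NC. The summed RPKM of a library ranged from 533099 to 554527. Spearman's rho over all genes was 0.989 to 0.990 between libraries of the same group and 0.980 to 0.981 between libraries of different groups, as a description across genes, which are not independent replicates. No library stood apart from the others of its group.

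**Figure D1:**
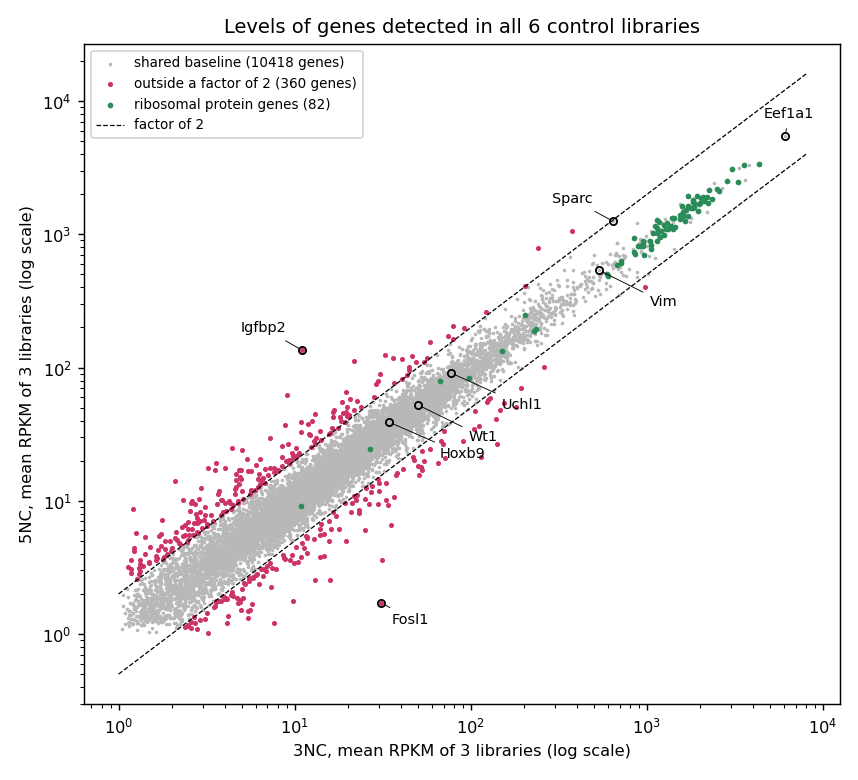
Mean RPKM of the 3 libraries of 3NC (x axis, log scale) against the mean of the 3 libraries of 5NC (y axis, log scale) for the 10778 genes detected in all 6 control libraries. Grey points are the 10418 genes within a factor of 2 (dashed lines), red points the 360 genes outside it, green points the 82 detected ribosomal protein genes, which sit along the diagonal, and circles mark genes named in the text.

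The spread within a group was small compared with the range of levels. The coefficient of variation of a gene within a group had a median of 6.82% for 3952 genes at 1 to 10 RPKM, 3.75% for 5933 genes at 10 to 100 RPKM, 2.58% for 810 genes at 100 to 1000 RPKM and 3.04% for 83 genes at 1000 RPKM or more. All 83 genes of the highest class and 796 of the 810 genes below them were in the shared baseline. The 893 genes at 100 RPKM or more, few in number, held most of the summed RPKM, 34.98% in the class from 100 to 1000 RPKM and 26.5% in the class above it.

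A growing cell spends much of its messenger RNA on its machinery for making protein, and the genes for ribosomal proteins and elongation factors are known to be controlled together at the level of translation through a run of C and T bases at the start of their transcripts. The highest level among the genes listed, of which none is mitochondrially encoded, was that of Eef1a1. This elongation factor brings aminoacyl-tRNA to the ribosome. It was at 6188, 6104 and 5971 RPKM in 3NC and 5431, 5407 and 5460.2 RPKM in 5NC. It ranked first in every library, and its lowest library was above the highest value of any other gene. Rpl23a, a protein of the large ribosomal subunit, followed with 4328 ± 68.2 and 3399 ± 150.1 RPKM. Rpl41, the smallest ribosomal protein, was at 3576 ± 80.7 and 3292 ± 159.6 RPKM. Of the 20 genes with the highest mean, 14 encode ribosomal proteins, and the others were Eef1a1, Zfp972, Ppia, Gapdh, Tpt1 and Ftl1. Ppia is cyclophilin A, a protein-folding enzyme, Gapdh an enzyme of glycolysis, Tpt1 a translationally controlled protein and Ftl1 the light chain of ferritin, which stores iron. The 10 genes with the highest mean over the 6 libraries held 6.604% ± 0.0302 of the summed RPKM in 3NC and 5.86% ± 0.11 in 5NC. When the 10 highest were taken in each group, 9 were the same in both. Of the 100 highest genes 91 were common to both groups. Of the 100 with the highest mean over the 6 libraries 65 were in the list of ribosomal protein genes, and Rps3a1 (1404 and 1232 RPKM), a ribosomal protein gene that the list does not hold, was also among them.

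The starts of 6 ribosomal protein genes are shown because the run of C and T bases can be read in them. They are the highest-level ribosomal protein genes whose window holds such a run, with Eef1a1 and, for comparison, Rpl41, Ppia and Gapdh, whose windows hold none. Each window has 30 bases, 15 before and 15 from the annotated start on, taken from RefSeq on build GRCm38.p6 and written 5′ to 3′ on the strand of the gene. Capitals mark runs of 8 or more bases that are all C or T.
Rpl38, chr11:114668565-114668594, plus strand: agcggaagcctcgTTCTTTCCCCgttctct
Rps18, chr17:33955651-33955680, minus strand: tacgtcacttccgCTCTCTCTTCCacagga
Rps27, chr3:90213634-90213663, minus strand: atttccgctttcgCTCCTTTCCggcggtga
Rpl13a, chr7:45128731-45128760, minus strand: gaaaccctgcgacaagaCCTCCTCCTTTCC
Rpl35, chr2:39005117-39005146, minus strand: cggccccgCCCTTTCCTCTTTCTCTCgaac
Rpl18, chr7:45718056-45718085, plus strand: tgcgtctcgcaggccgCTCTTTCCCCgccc
Eef1a1, chr9:78481710-78481739, minus strand: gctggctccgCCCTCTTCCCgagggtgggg
Rpl41, chr10:128549154-128549183, minus strand: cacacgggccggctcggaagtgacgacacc
Ppia, chr11:6415852-6415881, plus strand: cggcgaggctcgtgccgctttgcagacgcc
Gapdh, chr6:125165759-125165788, minus strand: caaagagagggaggaggggaaatgagagag

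Such a run stood in 27 of the 64 ribosomal protein genes that have an annotated start in that table (42.2%), in 8 of 50 genes for translation factors (16.0%), in 11 of 87 genes for oxidative phosphorylation (12.6%) and in 11 of 70 genes for the ubiquitin and proteasome system (15.7%). Over all 27025 starts in the table the share was 11.9%. Among 622 other genes of the shared baseline at 100 RPKM or more it was 10.9%, and among 4531 genes under 1 RPKM it was 12.4%. A run on the opposite strand (8 or more bases that are all A or G) stood in 2 of the 64 ribosomal protein genes (3.12%) and in 12.9% of all starts. Of the 8 ribosomal protein genes with the highest level among those with a start, again with the chromosome named above left aside, 2 held the run. A match describes these letters at this annotated start and is not a measured start of transcription.

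By class, the cytosolic ribosomal proteins took 21.3% ± 0.175 of the summed RPKM in 3NC and 19.5% ± 0.304 in 5NC. All 82 of the 85 listed ribosomal protein genes that were detected were in the shared baseline, with a median level of 1256 RPKM, against 15.4 RPKM for all detected genes. The 3 that were not detected were Rpl3l, Rpl10l and Rpl39l, relatives of ribosomal proteins that are known from muscle and testis, and none of them passed 0.08 RPKM in any library. Translation factors took 3.90% and 3.77%, with 62 of 66 genes in the shared baseline (93.9%, against 59.3% of all genes). Oxidative phosphorylation, the proton pumps and ATP synthase of mitochondria that are encoded in the nucleus, took 3.33% and 3.28%. Of its 108 genes 101 were in the shared baseline (93.5%, against the same 59.3%) and none was detected outside the factor of 2. Atp5b, a subunit of ATP synthase, was highest in that class at 732 ± 11.7 and 793 ± 2.69 RPKM.

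**Figure D2:**
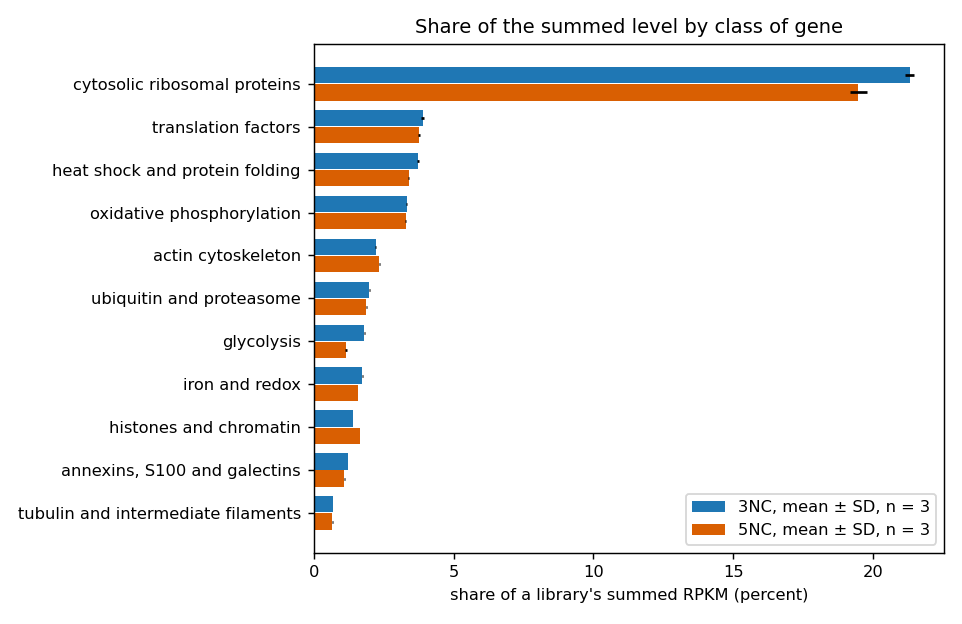
Share of a library's summed RPKM (x axis, percent) taken by 11 classes of genes (y axis). Bars are means of the 3 libraries of 3NC (blue) and 5NC (orange) and error bars their SD. Ribosomal proteins lie near 20% in both groups and every other class is under 4%.

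Protein-folding genes took 3.72% of the summed RPKM in 3NC and 3.39% in 5NC. They were led by Ppia at 3350.2 ± 50.5 and 3157 ± 57.1 RPKM. Hsp90ab1, a cytosolic chaperone, was at 1881 ± 12.6 and 1687 ± 11.9 RPKM, and Calr, a calcium-binding chaperone of the endoplasmic reticulum, at 1146 ± 12.6 and 1053 ± 7.68 RPKM. The ferritin chains were listed with Ftl1 at 2397 ± 33.5 and 2436 ± 43.4 RPKM and Fth1 at 1617 ± 58.8 and 1581 ± 6.91 RPKM. The cytoskeleton was led by the actins Actg1 (1381 and 1297 RPKM in 3NC and 5NC) and Actb (1215 and 1224 RPKM), the actin-severing protein Cfl1 (1318 and 1203 RPKM) and the tubulin Tuba1b (1053 and 1061 RPKM).

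Glycolysis took 1.81% of the summed RPKM in 3NC and 1.17% in 5NC. Of its 20 genes 13 were in the shared baseline (65.0%, against 59.3% of all genes) and 2 were under 1 RPKM. Of its 18 detected genes 5 were outside the factor of 2, as were 360 of all 10778 detected genes. Gapdh stood at 3604 ± 55.7 and 2568 ± 136 RPKM and Pkm, pyruvate kinase, at 1112 ± 7.07 and 667 ± 14.6 RPKM. Ldha, lactate dehydrogenase, was at 978 ± 15.8 and 405 ± 11.9 RPKM, and Slc2a1, the glucose transporter GLUT1, at 52.7 ± 0.928 and 17.1 ± 0.957 RPKM. Those 2 are therefore not part of the shared baseline.

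Some of the highest levels belong to genes whose transcripts share sequence with other genes. In GENCODE transcripts, 96 of the 100 most abundant genes had an annotated transcript, and a median of 51.3% of the 35-base words of that transcript also stood in a transcript of another gene. In 111 genes taken at every 100th place of the order by level, the median was 0.652%. The share was 72.5% for Eef1a1, 89.0% for Rpl23a, 83.8% for Gapdh and 94.0% for Ftl1. The third-highest entry, Zfp972, named as a zinc finger gene, was at 3798 ± 119 and 3313 ± 101 RPKM, and 61.3% of its words were shared with 24 other genes. Cd209c, a lectin gene, was listed at 997 ± 19.6 and 825 ± 20.9 RPKM, with 30.7% of its words shared. There were 5 predicted genes among the 100 highest. Gm8210 was the member of them with a transcript in that annotation, and all of its words (100%) were shared. Rps6, a core protein of the small subunit, was listed at only 26.9 ± 1.55 and 24.6 ± 1.88 RPKM and Rpl29 at 10.8 ± 0.428 and 9.18 ± 0.83 RPKM, with 84.8% and 48.8% of words shared. The alignment setting stated in the study's methods reports all matches of a read. How reads with several matches were then counted is not given in the sources used here, and the part of shared words in these levels was not tested, so these entries are uncertain.

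The label of the cells as spermatogonial was set beside marker genes. Spermatogonial stem cells are known for the GDNF receptor Gfra1 and its partner Ret, the transcription factors Zbtb16, Id4 and Etv5, and the surface receptor Adgra3. Germ cells of most stages express Ddx4 and Dazl. Of 19 listed spermatogonial markers, 7 were detected, 5 of them in the shared baseline, and 12 were under 1 RPKM in all libraries, 4 of these at 0 throughout. This is 36.8% detected, against 61.3% of all genes. The summed level of the list was 101 to 110.3 RPKM in the 3NC libraries and 122.5 to 126.7 RPKM in the 5NC libraries, most of it from Uchl1.

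Uchl1, a deubiquitinating enzyme found in spermatogonia and in neurons, was at 73.0, 76.3 and 82.1 RPKM in 3NC and 93.1, 91.1 and 89.2 RPKM in 5NC. Adgra3 was at 9.77, 10.02 and 10.03 RPKM in 3NC and 12.1, 11.8 and 12.2 RPKM in 5NC. The next member of the shared baseline was Taf4b, a germ cell subunit of the general transcription factor TFIID, at 3.32 ± 0.242 and 3.74 ± 0.146 RPKM. Id4, an inhibitor of helix-loop-helix factors, was at 1.56 ± 0.246 and 1.28 ± 0.0586 RPKM, and Eomes, a T-box factor, at 1.30 ± 0.0924 and 1.38 ± 0.278 RPKM. In this order the ranges of Uchl1, Adgra3 and Taf4b over the 6 libraries did not overlap with that of the next gene, while those of Id4 and Eomes did.

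Pou3f1, a POU factor induced by GDNF, was at 3.65, 3.32 and 4.24 RPKM in 3NC and 11.7, 11.99 and 11.7 RPKM in 5NC, and Etv5, an ETS factor, at 7.82, 7.89 and 7.72 RPKM in 3NC and 2.70, 3.52 and 3.07 RPKM in 5NC. The 2 genes were detected throughout but their levels did not hold between the groups. Gfra1 was at 0.09, 0.15 and 0.09 RPKM in 3NC and 0.17, 0.15 and 0.12 RPKM in 5NC, and Ret was at 0 in all 6 libraries. Zbtb16 reached 0.01 to 0.04 RPKM, Lhx1 0.11 to 0.33 RPKM and Nanos3 0 to 0.32 RPKM. Bcl6b reached 0 to 0.02 RPKM, Sohlh2 0 to 0.03 RPKM, Lin28a 0 to 0.02 RPKM and Pax7 0 to 0.01 RPKM. Nanos2, Neurog3 and Sohlh1 were at 0. Sall4, Utf1, Shisa6 and Egr4 were not analysed here. Of the 6 genes named above as known for spermatogonial stem cells, Adgra3, Etv5 and Id4 were detected, and Gfra1, Ret and Zbtb16 were at or near 0.

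Of 11 genes of germ cells at any stage, 1 was detected (9.09%, against 61.3% of all genes). It was Piwil2, a protein that binds small RNAs in the male germ line, at 1.40, 1.57 and 1.26 RPKM in 3NC and 5.40, 5.67 and 5.09 RPKM in 5NC, outside the factor of 2. Ddx4, the germ cell RNA helicase, was at 0 to 0.03 RPKM and Dazl, an RNA-binding protein, at 0 to 0.04 RPKM. Dnd1 was at 0.1 to 0.44 RPKM, Tdrd9 at 0.24 to 1.02 RPKM, Tex14 at 0 to 0.12 RPKM, Piwil4 at 0.02 to 0.05 RPKM, Tex101 at 0 to 0.07 RPKM and Rhox13 at 0 to 0.06 RPKM, while Mael and Tdrd1 were at 0. None of 12 genes of differentiating spermatogonia and meiosis was detected, against 61.3% of all genes. Sycp1, of the synaptonemal complex, came closest at 0.61 to 1.33 RPKM, and Kit, the receptor of differentiating spermatogonia, Stra8, Rec8, Dmc1 and Piwil1 were at 0. None of 10 spermatid genes was detected, against the same 61.3%, and the protamines and transition proteins Prm1, Prm2, Tnp1 and Tnp2 were at 0. The summed levels of these 3 lists were 2.38 to 2.80 RPKM in 3NC and 5.94 to 6.48 RPKM in 5NC for germ cells of any stage, 1.48 to 1.60 RPKM and 1.10 to 1.59 RPKM for meiosis, and 0.36 to 0.47 RPKM and 0.16 to 0.32 RPKM for spermatids.

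**Figure D3:**
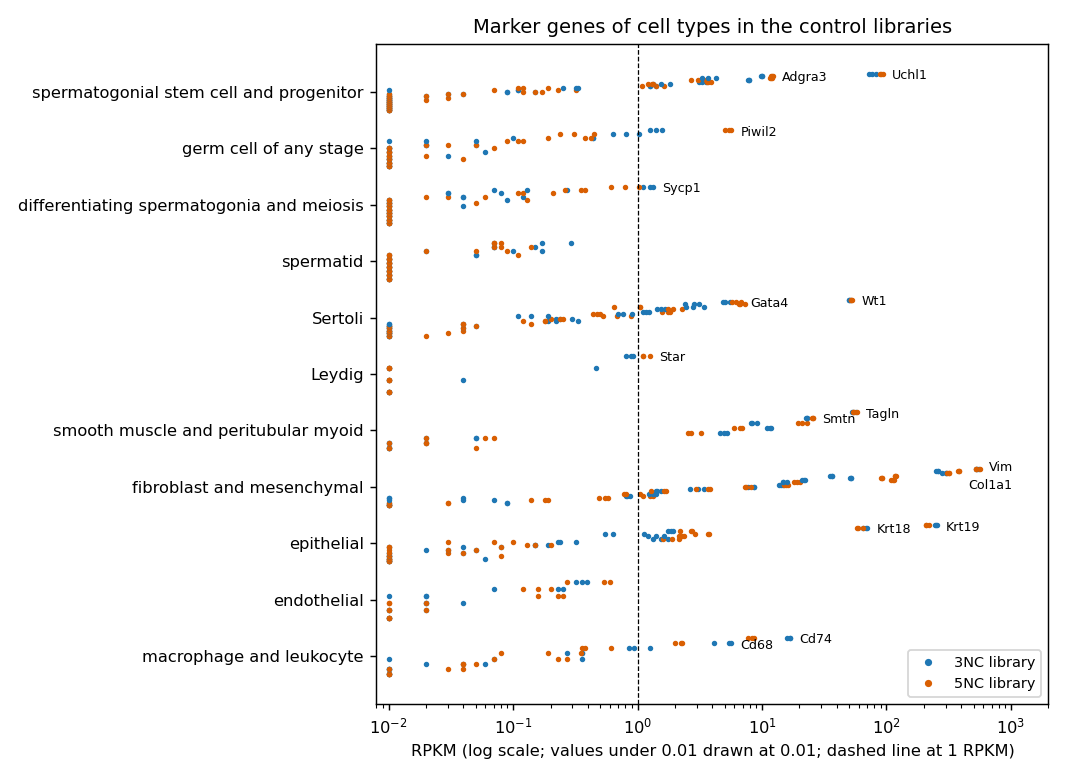
Level of each marker gene (x axis, RPKM on a log scale, values under 0.01 drawn at 0.01) in 11 lists of cell type markers (y axis). Each point is 1 library, blue for 3NC and orange for 5NC, the dashed line is 1 RPKM, and up to 2 of the highest genes of a list are named. Germ cell lists lie mostly left of the line, while Vim, Col1a1 and Krt19 lie above 100 RPKM.

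Other cell types of the testis were represented unevenly. Among 16 Sertoli cell genes 5 were detected (31.2%, against 61.3% of all genes). Wt1, a zinc finger factor of Sertoli cells and other cells of the urogenital ridge, was at 49.8, 50.02 and 51.1 RPKM in 3NC and 52.4, 53.1 and 51.5 RPKM in 5NC, and Gata4 at 5.15 ± 0.362 and 6.23 ± 0.506 RPKM. Inha, the inhibin alpha chain, was at 1.55 ± 0.116 and 1.997 ± 0.266 RPKM and Kitl, the ligand of Kit, at 1.17 ± 0.0651 and 1.72 ± 0.143 RPKM. Clu, clusterin, was at 2.80 and 6.82 RPKM and outside the factor of 2, and Rhox5, a homeobox gene, was mixed between libraries at 0.65 to 3.43 RPKM. Sox9 (0 to 0.02 RPKM), Amh (0 to 0.14 RPKM), Dmrt1 (0 to 0.03 RPKM), Nr5a1 (0 to 0.04 RPKM) and Cldn11 (0 to 0.04 RPKM), which define Sertoli cells, stayed under 1 RPKM. The summed level of the list was 64.6 to 66.6 RPKM in 3NC and 71.2 to 72.6 RPKM in 5NC. None of 4 Leydig cell genes was detected in all 6 libraries, Star coming closest at 0.81 to 1.27 RPKM, with Cyp11a1 at 0. None of 6 endothelial genes was detected, with Cdh5 at 0 and Kdr at 0.27 to 0.6 RPKM. A further 4 Leydig cell genes and 2 endothelial genes were not analysed here.

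Mesenchymal genes had the highest levels of the marker lists, with a summed level of 1225 to 1267 RPKM in 3NC and 1582 to 1633 RPKM in 5NC. Of 17 genes 11 were detected (64.7%), near the 61.3% of all genes, and 9 were in the shared baseline (52.9%, against 59.3%). Vim, the intermediate filament vimentin, was at 553, 520.1 and 534 RPKM in 3NC and 564, 522 and 525 RPKM in 5NC, and the 2 groups overlapped. Col1a1, the alpha 1 chain of type I collagen, was at 256 ± 6.15 and 381 ± 2.33 RPKM. S100a4, a calcium-binding protein, was at 294 ± 11.1 and 314 ± 7.66 RPKM, and the adhesion protein Cdh2 (N-cadherin) at 51.7 ± 0.626 and 91.6 ± 0.595 RPKM. The median level of the 17 genes was 7.98 RPKM. Thy1, a surface protein of fibroblasts and of spermatogonial stem cells, was at 0 in all libraries. Col1a2 (0 to 0.58 RPKM), Postn (0 to 0.19 RPKM) and Fap (0 to 0.09 RPKM) also stayed under 1 RPKM. Pdgfra (0.78 to 1.4 RPKM) and Pdgfrb (0.81 to 1.34 RPKM) were mixed between libraries. Col3a1 (36.0 and 118 RPKM) and Dcn (21.6 and 112 RPKM) were detected outside the factor of 2.

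Epithelial genes were split. Krt19 was at 255, 245 and 251 RPKM in 3NC and 220.0, 206 and 209 RPKM in 5NC and Krt18 at 67.5 ± 2.99 and 60.6 ± 3.52 RPKM. Epcam (1.85 ± 0.0917 and 2.54 ± 0.303 RPKM), Dsp (1.41 ± 0.2 and 2.26 ± 0.1 RPKM) and Krt8 (1.55 ± 0.215 and 1.88 ± 0.28 RPKM) were just above 1 RPKM, while Cdh1 (E-cadherin) was at 0.01 to 0.05 RPKM. Of 8 smooth muscle and peritubular genes 5 were detected (62.5%, near the 61.3% of all genes), led by Tagln, an actin-binding protein, at 54.5 ± 2.10 and 55.4 ± 2.11 RPKM. Acta2, smooth muscle actin, was at 8.52 and 21.2 RPKM and outside the factor of 2, and Myh11, smooth muscle myosin, stayed at 0.02 to 0.07 RPKM. Of 8 leukocyte genes Cd74 (16.5 and 8.25 RPKM) and Cd68 (5.05 and 2.18 RPKM) were detected outside the factor of 2, and Ptprc (CD45) was at 0 to 0.01 RPKM. The summed levels in 3NC and 5NC were 321 to 329 RPKM and 275 to 296 RPKM for the epithelial list, 21.5 to 24.0 RPKM and 11.04 to 11.5 RPKM for the leukocyte list, and at most 1.38 RPKM for the Leydig and endothelial lists. In bulk RNA a low level in every cell and a high level in few cells cannot be told apart.

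Cells sense growth factors, cytokines and matrix through receptors on their surface, and the receptors present limit which ligands they can answer. Of 409 receptor and surface genes in 9 lists 193 were detected (47.2%) and 179 were in the shared baseline (43.8%, against 59.3% of all genes). A further 14 were detected outside the factor of 2, and 188 were under 1 RPKM (34.7% of all genes were). The median level of the detected receptors was 10.2 RPKM, below the 15.4 RPKM of all detected genes, and 12 of the 179 were at 100 RPKM or more. Each list is given by its highest members.

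Receptor tyrosine kinases, which start growth factor signalling by phosphorylating tyrosines, had 24 of 53 members in the shared baseline and none outside the factor of 2. Axl, the receptor of GAS6, was at 85.0, 80.9 and 81.4 RPKM in 3NC and 69.2, 70.7 and 71.7 RPKM in 5NC. Ddr1, a receptor for collagen, was at 51.7, 49.6 and 51.5 RPKM in 3NC and 73.6, 74.3 and 75.2 RPKM in 5NC. Epha2, an ephrin receptor, was at 56.01, 55.3 and 57.1 RPKM in 3NC and 62.2, 62.2 and 59.6 RPKM in 5NC. The order of these genes changed between the groups, Axl being above Ddr1 in 3 of 6 libraries and Ddr1 above Epha2 in 3 of 6, but all of them were above the next receptor, Ptk7, in every library. Ptk7, a Wnt co-receptor, was at 36.4 ± 0.252 and 51.1 ± 1.81 RPKM. Ryk was at 35.1 ± 1.70 and 42.0 ± 0.7 RPKM and Ddr2, also a collagen receptor, at 31.9 ± 0.161 and 41.4 ± 0.894 RPKM. Met, the receptor of hepatocyte growth factor, was at 23.5, 24.8 and 23.7 RPKM in 3NC and 23.1, 26.1 and 24.9 RPKM in 5NC, with overlapping groups. Ret, Kit and Ntrk2, a neurotrophin receptor, were at 0 in all 6 libraries.

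All 8 detected of 14 TGF-beta superfamily receptors were in the shared baseline. Bmpr1a, a type I receptor for bone morphogenetic proteins, was at 27.2, 25.6 and 25.3 RPKM in 3NC and 24.7, 27.8 and 27.4 RPKM in 5NC, above Tgfbr2, the type II receptor of TGF-beta, at 15.4 ± 0.269 and 23.1 ± 0.722 RPKM. Tgfbr1, its type I partner, followed at 8.29 ± 0.278 and 11.99 ± 0.52 RPKM and Acvr1, an activin and BMP type I receptor, at 7.35 ± 0.327 and 9.55 ± 0.344 RPKM. These 2 overlapped in range, though Tgfbr1 was the higher in all 6 libraries.

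Cytokine receptors had 22 of 41 members in the shared baseline and none outside it among the detected. Ifnar2, a chain of the type I interferon receptor, was at 58.3, 52.8 and 56.3 RPKM in 3NC and 65.9, 64.1 and 65.1 RPKM in 5NC, above all others in every library. Ifngr2, a chain of the interferon gamma receptor, was at 27.6 ± 0.519 and 24.3 ± 0.412 RPKM. Il17rc was at 22.1 ± 2.28 and 27.9 ± 1.08 RPKM, Il10rb at 19.9 ± 1.11 and 22.3 ± 0.611 RPKM and Il6st, the shared gp130 chain of the IL-6 family, at 16.6 ± 0.65 and 21.6 ± 0.658 RPKM. Neighbours in this order below Ifnar2 overlapped.

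In the TNF receptor family 8 of 27 members were in the shared baseline. Tnfrsf12a, the receptor of TWEAK, was the receptor with the highest level of this list at 212, 199.9 and 215 RPKM in 3NC and 231, 215 and 214 RPKM in 5NC. Tnfrsf1a, the main TNF receptor, was at 51.3 ± 0.786 and 54.5 ± 4.02 RPKM and Ltbr, the lymphotoxin beta receptor, at 38.3 ± 1.92 and 57.6 ± 2.44 RPKM, and these 2 could not be ordered, Tnfrsf1a being higher in 3 of 6 libraries. Within a library Tnfrsf1a was 4.82 to 6.38 times Tnfrsf1b. Tnfrsf23 (14.7 and 5.61 RPKM) and Tnfrsf22 (11.8 and 5.24 RPKM) were detected outside the factor of 2.

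Of 26 receptors of the Wnt, Notch and Hedgehog pathways 14 were in the shared baseline. Smo, the transducer of Hedgehog signals, was at 34.0, 31.3 and 31.7 RPKM in 3NC and 49.3, 46.6 and 49.7 RPKM in 5NC, above Lrp5 (26.2 ± 1.03 and 24.1 ± 0.896 RPKM) and Lrp6 (14.9 ± 0.624 and 11.9 ± 0.445 RPKM), both Wnt co-receptors. The frizzled receptors Fzd2 (7.71 ± 0.3 and 8.81 ± 0.164 RPKM) and Fzd7 (8.31 ± 0.35 and 7.15 ± 0.0586 RPKM) overlapped. Fzd6 (19.3 and 38.9 RPKM), Cdon (6.06 and 18.6 RPKM) and Gas1 (2.09 and 13.98 RPKM) were detected outside the factor of 2.

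G protein-coupled receptors were mostly low, with 63 of 100 under 1 RPKM and 28 in the shared baseline. F2r, the thrombin receptor PAR1, was at 55.4, 53.4 and 52.5 RPKM in 3NC and 77.9, 83.3 and 79.0 RPKM in 5NC, above Gprc5a (29.8 ± 0.709 and 37.7 ± 1.88 RPKM), an orphan receptor, and Gpr39 (22.1 ± 0.671 and 20.1 ± 1.19 RPKM), a zinc receptor. Of 45 nuclear receptors 17 were in the shared baseline. Nr1h2, an oxysterol receptor, was at 31.1, 30.1 and 35.5 RPKM in 3NC and 30.0, 25.3 and 26.3 RPKM in 5NC. Rarg, a receptor of retinoic acid, was at 29.2, 28.7 and 29.8 RPKM in 3NC and 31.2, 28.2 and 30.8 RPKM in 5NC. Thra, a thyroid hormone receptor, was at 25.9 ± 0.508 and 31.3 ± 0.802 RPKM, and the ranges of the 3 overlapped. Retinoic acid is the signal that starts differentiation of spermatogonia.

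Integrins, the heterodimers that bind cells to matrix, had 9 of 26 members in the shared baseline, and 16 were under 1 RPKM. Itgb1, the beta chain shared by most of them, was at 277, 273 and 264 RPKM in 3NC and 288, 296 and 289 RPKM in 5NC. Itga3, a laminin-binding alpha chain, was at 70.0 ± 1.25 and 70.7 ± 2.08 RPKM, and Itgav, an alpha chain for RGD ligands, at 50.01 ± 1.53 and 51.2 ± 2.33 RPKM. Itga5, of the fibronectin receptor, was at 37.97 ± 0.57 and 36.1 ± 0.75 RPKM, and Itgb5 at 17.99 ± 0.781 and 22.2 ± 1.94 RPKM. This was the most clearly ordered of the receptor lists, since in 7 of its 8 neighbouring pairs the ranges over the 6 libraries did not overlap. Itga6, a chain known from spermatogonial stem cells, was at 5.51 ± 0.551 and 4.51 ± 0.217 RPKM and overlapped with Itga7.

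Surface antigens and adhesion molecules had 49 of 77 members in the shared baseline, 10 of them at 100 RPKM or more. Cd63, a tetraspanin of lysosomes and exosomes, was at 637, 627 and 625 RPKM in 3NC and 571, 608 and 599 RPKM in 5NC. Bsg, basigin, a chaperone of lactate transporters, was at 477, 470.4 and 499 RPKM in 3NC and 443, 442 and 462 RPKM in 5NC, and Prnp, the prion protein, at 525 ± 10.96 and 385 ± 10.6 RPKM. Bsg was above Prnp in 3 of 6 libraries. Cdh3 (19.5 and 65.8 RPKM), Cd44 (49.9 and 18.4 RPKM) and Mme (3.997 and 17.7 RPKM) were detected outside the factor of 2.

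**Figure D4:**
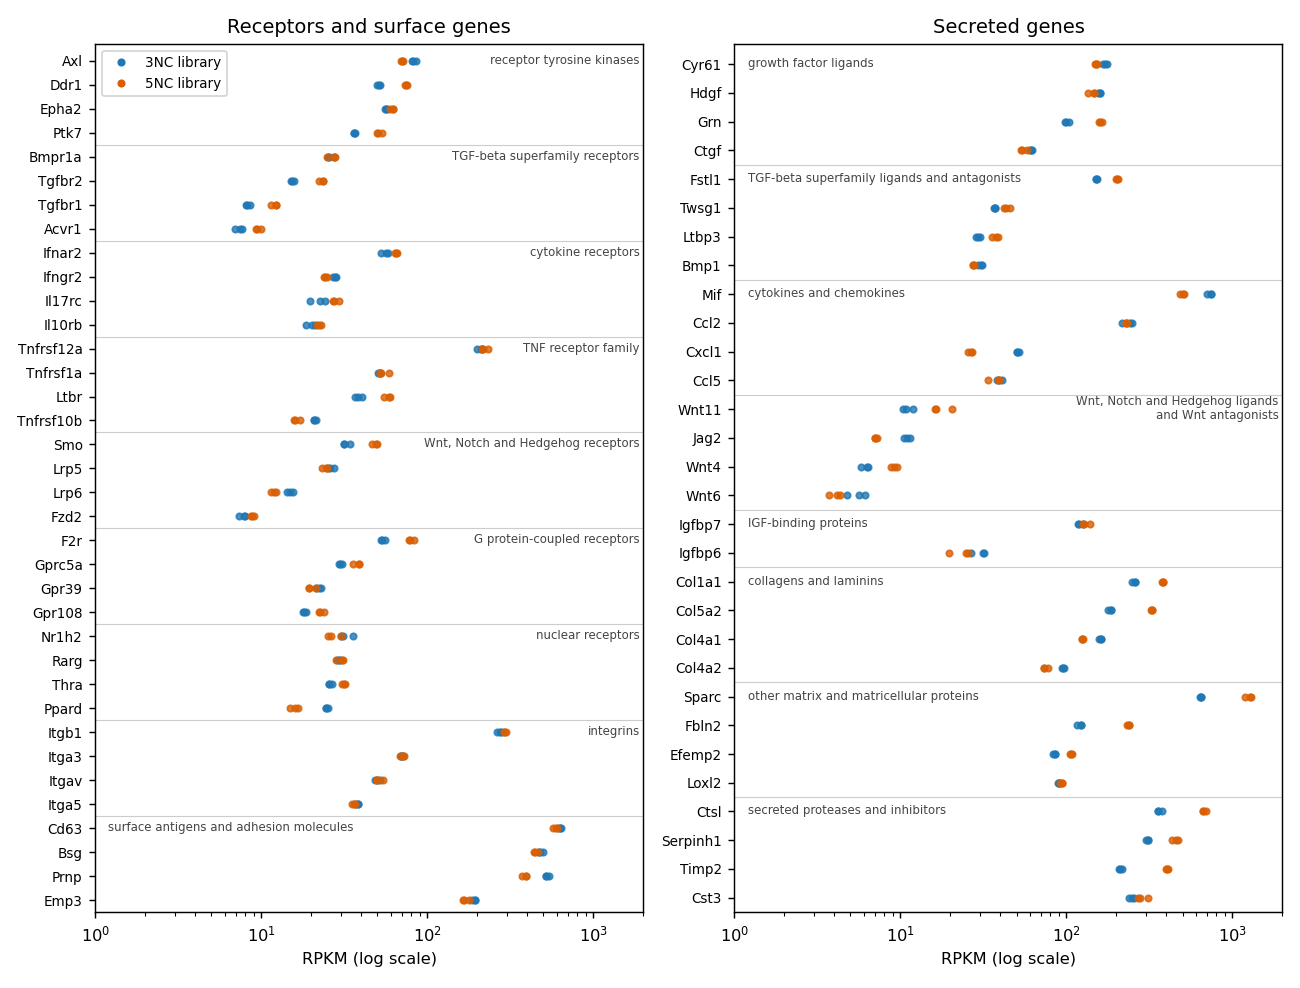
Level (x axis, RPKM on a log scale) of the up to 4 highest shared-baseline genes of each list of receptors and surface genes (left) and of secreted genes (right). Each point is 1 library, blue for 3NC and orange for 5NC. Cd63, Bsg and Prnp lead the left panel and Sparc, Mif and Ctsl the right one.

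Secreted proteins carry signals to other cells and build the matrix around them. Of 337 genes in 8 lists 158 were detected (46.9%) and 118 were in the shared baseline (35.01%, against 59.3% of all genes). Of the 158, 40 were outside the factor of 2, as were 360 of all 10778 detected genes. The median level of the detected secreted genes was 15.5 RPKM. Together they took 1.37% of the summed RPKM in 3NC and 1.89% in 5NC.

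Growth factor ligands had 19 of 66 members in the shared baseline and 10 detected outside it. Cyr61, a matricellular protein that binds integrins, was at 176, 165 and 169.9 RPKM in 3NC and 153, 151 and 148 RPKM in 5NC. Hdgf, a growth factor found also in the nucleus, was at 157 ± 1.93 and 142 ± 6.37 RPKM. Grn, progranulin, was at 100.4 ± 2.78 and 161 ± 3.09 RPKM, and Ctgf, a relative of Cyr61, at 61.2 ± 0.777 and 55.2 ± 2.55 RPKM. Vegfa, the main angiogenic factor, was at 50.6, 50.6 and 52.6 RPKM in 3NC and 57.6, 50.1 and 52.99 RPKM in 5NC, with overlapping groups. Gas6, the ligand of Axl, was at 29.7 and 79.5 RPKM, Wisp1 at 18.5 and 55.3 RPKM and Fgf21, an endocrine fibroblast growth factor, at 9.08 and 61.8 RPKM. These are not shared levels.

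Of 35 TGF-beta superfamily ligands and antagonists 14 were in the shared baseline. Fstl1, a follistatin-like protein, was at 151, 153 and 150.3 RPKM in 3NC and 205, 198 and 200.5 RPKM in 5NC. Twsg1, which binds BMPs, was at 37.1 ± 0.353 and 43.7 ± 1.87 RPKM, and Ltbp3, which tethers latent TGF-beta, at 29.3 ± 0.857 and 37.4 ± 1.498 RPKM. Bmp1, a protease of procollagen, was at 30.4 ± 0.89 and 27.5 ± 0.24 RPKM and Tgfb1 at 19.0 ± 0.886 and 12.6 ± 0.938 RPKM. Gdf15 (40.7 and 81.7 RPKM), Bmp4 (8.89 and 20.04 RPKM) and Tgfb2 (5.67 and 11.9 RPKM) were outside the factor of 2.

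Cytokines and chemokines had 17 of 67 members in the shared baseline. Mif, macrophage migration inhibitory factor, was at 743, 703 and 742 RPKM in 3NC and 509.7, 486 and 502 RPKM in 5NC. For this gene 85.7% of the 35-base words of its transcript were shared with other genes. Ccl2, a chemokine for monocytes, was at 241, 215 and 248 RPKM in 3NC and 230.5, 229 and 229 RPKM in 5NC, and the groups overlapped. Ccl5, a chemokine for T cells, was at 39.5 ± 1.39 and 37.2 ± 3.10 RPKM, Cxcl1 at 50.7 ± 0.723 and 26.5 ± 0.774 RPKM and Clcf1, of the IL-6 family, at 21.2 ± 1.02 and 21.5 ± 0.495 RPKM. Spp1, osteopontin, was at 187, 185 and 172 RPKM in 3NC and 48.1, 51.3 and 51.8 RPKM in 5NC, and Csf1, the macrophage growth factor, at 56.04 ± 1.49 and 117 ± 2.38 RPKM, both outside the factor of 2.

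Of 34 Wnt, Notch and Hedgehog ligands and Wnt antagonists 8 were in the shared baseline, none above 20 RPKM in its mean of a group. Wnt11 was at 11.04 ± 0.86 and 17.6 ± 2.43 RPKM, Jag2, a Notch ligand, at 10.95 ± 0.486 and 7.10 ± 0.119 RPKM, Wnt4 at 6.11 ± 0.314 and 9.13 ± 0.435 RPKM and Wnt6 at 5.51 ± 0.67 and 4.05 ± 0.307 RPKM. Among the IGF-binding proteins Igfbp7 was at 126, 117 and 119.7 RPKM in 3NC and 139, 126 and 128 RPKM in 5NC, and Igfbp2 was at 12.9, 10.9 and 9.34 RPKM in 3NC and 129.8, 138 and 136 RPKM in 5NC. The first held between the groups and the second did not.

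Matrix genes were among the highest secreted genes. Sparc, a collagen-binding matricellular protein, was at 643, 645 and 634 RPKM in 3NC and 1195, 1278 and 1301 RPKM in 5NC, just inside the factor of 2. Col1a1 stood at 259.6, 249 and 260.0 RPKM in 3NC and 383, 381 and 378 RPKM in 5NC. Col5a2, a chain of type V collagen, was at 184 ± 3.94 and 326 ± 2.42 RPKM, and the basement membrane chains Col4a1 at 159.8 ± 2.23 and 125 ± 0.865 RPKM and Col4a2 at 95.4 ± 1.11 and 74.4 ± 2.37 RPKM. Lamc1 (38.9 ± 0.525 and 59.7 ± 0.748 RPKM) and Lama5 (36.4 ± 1.02 and 44.1 ± 0.702 RPKM) encode chains of laminin. Fbln2, a fibulin, was at 119.8 ± 3.53 and 236 ± 4.77 RPKM. Col6a1 (46.0 and 123 RPKM), Col6a2 (30.5 and 89.6 RPKM) and Efemp1 (74.2 and 173 RPKM) were outside the factor of 2. Among 47 secreted proteases and inhibitors 23 were in the shared baseline, 7 of them at 100 RPKM or more. They were led by the cathepsin Ctsl at 365 ± 11.6 and 672 ± 18.5 RPKM and the collagen chaperone Serpinh1 at 308 ± 4.33 and 452 ± 16.6 RPKM. The metalloproteinase inhibitor Timp2 was at 212 ± 4.70 and 404 ± 4.87 RPKM and the cathepsin inhibitor Cst3 at 247 ± 8.44 and 286 ± 22.7 RPKM.

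Ligands were then set beside their known receptors. Of 72 pairs with both genes listed, 33 had both detected in all 6 libraries. In 15 the receptor was detected and the ligand under 1 RPKM, and in 8 the ligand was detected and the receptor under 1 RPKM. In 6 both were under 1 RPKM, and in 10 a member was mixed between libraries. Gdnf, the growth factor on which spermatogonial stem cells depend, was at 0.44 to 0.9 RPKM, Gfra1 at 0.09 to 0.17 RPKM and Ret at 0, so none of the 3 was detected. Kitl was detected and Kit was at 0.

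The pairs hold only some of the known ligands of a receptor. Detected receptors whose paired ligand was under 1 RPKM included Met, with Hgf at 0 in all libraries, and Ifnar2, with Ifnb1 at 0 to 0.1 RPKM. The same held for Tnfrsf1a, with Tnf at 0 to 0.05 RPKM, Ltbr, with Ltb at 0.19 to 0.75 RPKM, and Osmr (11.7 and 11.2 RPKM), with Osm at 0 to 0.03 RPKM. Detected ligands whose paired receptor was under 1 RPKM included Ccl2 and Ccl7 (Ccr2 at 0 to 0.02 RPKM), Bdnf (10.4 and 15.3 RPKM, Ntrk2 at 0), and Csf1 (Csf1r at 0.02 to 0.06 RPKM). Pairs with both members in the shared baseline included Col1a1 with Ddr1 and Ddr2, Vegfa with Flt1 (6.87 and 5.91 RPKM), and Igf2 (11.7 and 8.18 RPKM) with Igf1r (6.10 and 6.83 RPKM). Others were Lif (9.35 and 8.76 RPKM) with Lifr (7.41 and 5.76 RPKM), Lama5 with Itga3, and Tnfsf12 (17.5 and 16.9 RPKM) with Tnfrsf12a. Within a library Tnfrsf12a was 11.3 to 13.8 times Tnfsf12. These are RNA levels, and no protein was measured.

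Transcription factors set the program of a cell by binding DNA, and most are present at low RNA levels. Of 496 factors and cofactors in 22 families 286 were detected (57.7%) and 267 were in the shared baseline (53.8%). These shares are near the 61.3% and 59.3% of all genes. Another 19 were outside the factor of 2, and 187 were under 1 RPKM. The median level of those detected was 9.42 RPKM, and 6 in the shared baseline were at 100 RPKM or more.

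The highest was Atf4, the main factor of the response to amino acid shortage and stress of the endoplasmic reticulum, at 354, 344 and 360.5 RPKM in 3NC and 472, 442 and 455 RPKM in 5NC. Its relatives Atf5 (95.3 ± 1.77 and 126 ± 4.63 RPKM) and Ddit3, also called CHOP (87.6 ± 1.38 and 106 ± 2.74 RPKM), overlapped with each other and were below Atf4 in every library. Trp53, the tumour suppressor p53, was at 119, 114 and 121 RPKM in 3NC and 137, 129.9 and 135 RPKM in 5NC. Tfdp1, the partner of E2F factors in the control of the cell cycle, was at 123.6, 121 and 122 RPKM in 3NC and 121, 118 and 118 RPKM in 5NC. Nfe2l1, a factor of proteasome genes, was at 95.9 ± 1.82 and 130.3 ± 2.81 RPKM.

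The helix-loop-helix inhibitors Id3 (87.2 ± 3.35 and 123.6 ± 9.13 RPKM), Id1 (86.0 ± 4.84 and 92.8 ± 4.77 RPKM) and Id2 (50.1 ± 1.01 and 45.6 ± 3.70 RPKM) were far above Id4, which was named among the spermatogonial markers. Tead2, which with Yap1 and Wwtr1 acts at the end of the Hippo pathway, was at 84.1, 82.1 and 87.3 RPKM in 3NC and 81.8, 83.6 and 84.9 RPKM in 5NC, with overlapping groups. Wwtr1 was at 37.9 ± 0.478 and 42.0 ± 1.58 RPKM and Yap1 at 32.3 ± 0.479 and 37.5 ± 0.165 RPKM. Foxm1, a factor of dividing cells, was at 64.0 ± 0.608 and 74.4 ± 2.41 RPKM, Rela of NF-kB at 59.7 ± 0.904 and 75.6 ± 1.39 RPKM and Stat3 at 45.4 ± 1.01 and 36.2 ± 1.48 RPKM. All 8 SMAD genes and all 10 E2F and partner genes were in the shared baseline, as were 12 of 16 STAT and IRF genes, 9 of 10 NF-kB and NFAT genes and 4 of 5 GATA genes. Of 13 SOX genes 3 were in the shared baseline (23.1%, against 59.3% of all genes), led by Sox12 (15.8 ± 0.356 and 24.1 ± 0.694 RPKM).

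Transcription factors detected outside the factor of 2 included Fosl1, an AP-1 factor, at 31.2, 29.8 and 31.9 RPKM in 3NC and 1.61, 1.98 and 1.58 RPKM in 5NC, and Etv4, an ETS factor, at 32.1, 30.2 and 31.6 RPKM in 3NC and 3.40, 3.73 and 3.63 RPKM in 5NC. Neither is part of the shared baseline. Egr1, an immediate early factor, was at 46.8 ± 1.26 and 21.4 ± 0.458 RPKM, Hmga1, an architectural chromatin protein, at 35.4 ± 2.39 and 6.61 ± 0.655 RPKM, and Sox4 at 12.9 ± 0.645 and 27.99 ± 2.01 RPKM. Of the other 6 AP-1 genes 5 were in the shared baseline, with Junb at 51.0 ± 3.62 and 41.6 ± 1.14 RPKM and Jund at 26.3 ± 2.01 and 35.8 ± 5.46 RPKM.

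Hox genes lie in 4 clusters and give cells a memory of their position along the body axis, low paralog numbers marking anterior and high ones posterior origin. Of 38 Hox genes 23 were detected (60.5%), near the 61.3% of all genes, and all 23 were in the shared baseline. Another 14 were under 1 RPKM, and Hoxa6 was mixed between libraries at 0.94 to 2.0 RPKM. By cluster, 7 of 11 Hoxa, 7 of 10 Hoxb, 6 of 8 Hoxc and 3 of 9 Hoxd genes were detected. Hoxb9 was at 34.0, 35.2 and 33.4 RPKM in 3NC and 37.4, 39.2 and 40.5 RPKM in 5NC, above every other Hox gene in every library. Hoxa9 was at 17.7 ± 0.675 and 17.2 ± 0.741 RPKM, Hoxb7 at 13.1 ± 0.775 and 18.9 ± 1.28 RPKM, Hoxa10 at 16.0 ± 1.03 and 14.5 ± 0.959 RPKM and Hoxc10 at 16.2 ± 1.37 and 13.8 ± 1.38 RPKM, and neighbours among these 4 overlapped.

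By position, 3 of 8 genes of paralogs 1 to 3 were detected, 12 of 15 of paralogs 4 to 8, 6 of 7 of paralogs 9 and 10, and 2 of 8 of paralogs 11 to 13. The 7 genes of paralogs 9 and 10 had the highest summed level, 94.5 RPKM in 3NC and 98.6 RPKM in 5NC, and those of paralogs 11 to 13 summed to 11.3 and 10.3 RPKM. The 2 detected at the posterior end were Hoxc13 at 7.74, 8.35 and 8.50 RPKM in 3NC and 7.35, 6.82 and 7.68 RPKM in 5NC and Hoxd13 at 3.05, 2.55 and 2.76 RPKM in 3NC and 2.77, 2.53 and 2.86 RPKM in 5NC. The next genes of their clusters were near 0, with Hoxc12 at 0 to 0.09 RPKM, Hoxd12 at 0 to 0.03 RPKM and Hoxd11 at 0.02 to 0.16 RPKM. At the anterior end Hoxa3 (4.15 ± 0.695 and 2.78 ± 0.24 RPKM) and Hoxb3 (2.01 ± 0.0819 and 2.19 ± 0.149 RPKM) were detected and Hoxb1 was at 0.

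**Figure D5:**
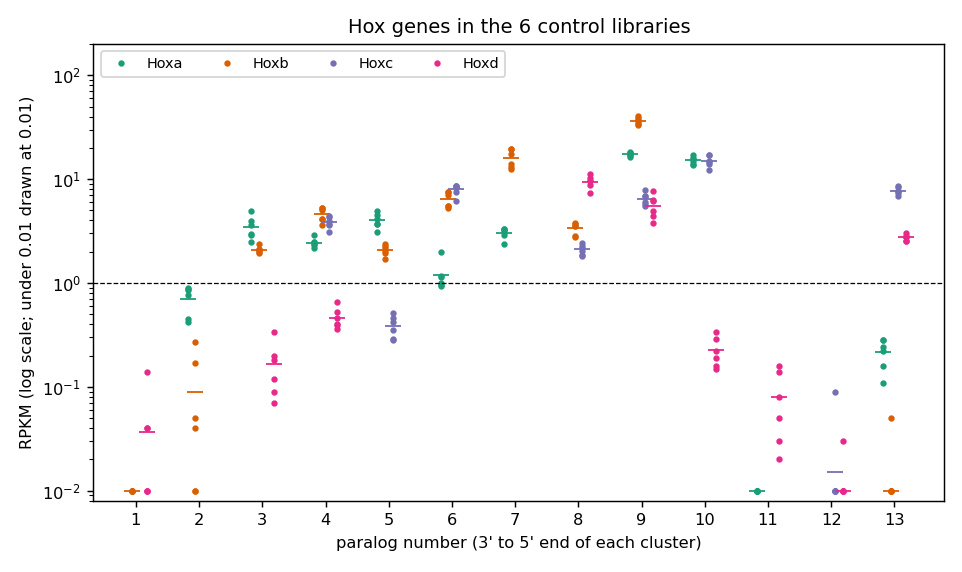
Level of Hox genes (y axis, RPKM on a log scale, values under 0.01 drawn at 0.01) by paralog number (x axis) and cluster (colour). Each point is 1 control library, the bar is the mean of 6, and the dashed line is 1 RPKM. Hoxb9 is the highest gene, and Hoxc13 and Hoxd13 stand above 1 RPKM while the other genes of paralogs 11 to 13 lie below it.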

How the data were processed

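RNA of C18-4 cells was measured in 12 libraries, of which the 6 control libraries (3NC and 5NC, 3 each) were used. Per the study's methods, the authors enriched mRNA with oligo(dT), sequenced it on an Illumina instrument, mapped reads to reference genes with SOAPaligner and deposited RPKM values, which divide reads by gene length and library size. The labels name total RNA. The stated alignment setting reports all matches of a read. The genome build, the gene set and how reads with several matches were counted are not given in the sources used here. The depth in reads is unknown. Low values of the first 3NC library over those of each library had a median ratio of 0.991 to 1.03. These ratios cannot give the depth, since RPKM is already divided by library size and distant ratios were left out.

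RPKM values were used as deposited (Python 3, pandas), with no count model and no test between groups. Detection was at least 1 RPKM in all 6 libraries and the shared baseline a factor of 2 between group means. The spread is the SD of log2(RPKM + 1). Neighbours in an order were called apart when the ranges over 6 libraries did not overlap. The 61 lists (11 of cell type markers, 9 of receptors and surface genes, 8 of secreted genes, 22 transcription factor families and 11 abundance classes) and the members of 75 ligand and receptor pairs were chosen with earlier results of these data known, and the pairs after levels were seen. Hspg2 was taken out of the folding class, which it had entered by its letters. Genes were named as the 20 highest, the 6 highest shared and 3 highest unshared of a list, the germ cell markers and the highest and defining markers of other cell types, with the partners of named ligands and receptors. Other Hox genes, Rps3a1, Rps6, Rpl29, Cd209c and Rhox5 were named after their values were seen. Of 3 symbols listed more than once the first entry was used. Starts came from RefSeq (GRCm38.p6; 13760 of the table's genes matched) and transcripts from GENCODE vM21. The rules were tested on simulated levels. Some genes of the lists are not reported here.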

Additional observations from a re-analysis of the deposited data

How the results depend on the processing

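No paired analysis was run, by choice, since the results come from no test. The group means were set side by side under a factor of 2, and a replicate number does not change the mean of a group. The count of detected genes was 11337 with a threshold of 0.5 RPKM, 8364 with 5 RPKM, 11245 with at least 1 RPKM in 3 or more libraries and 11187 with a mean of at least 1 RPKM. The shared baseline held 9383 genes with a factor of 1.5, 10692 with a factor of 3, 10429 after quantile normalization and 8199 with a threshold of 5 RPKM. With libraries scaled to the median summed RPKM, 10775 genes were detected and 10391 were in the shared baseline. These counts stayed within 1.5 times the main ones, as they did with each library left out (10794 to 10807 detected and 10419 to 10446 in the shared baseline). Without ribosomal protein genes the 50, 100 and 1000 highest genes held 15.6%, 22.0% and 55.6% of the summed RPKM, against 19.3%, 29.4% and 63.4% with them. The share of the 10 highest was 6.23%, and 91 of the 100 highest genes were common to both groups. The median SD of log2(RPKM + 1) within a group was 0.0581, 0.0629 with a pseudocount of 0.1 and 0.0535 with no filter on low values, and 0.0541 to 0.0578 with a library left out, lowest without 5NC replicate 1. Of all 61 lists 22 moved by over 1.5 times in their count of shared members with a threshold of 5 RPKM and 2 with 0.5 RPKM. Over the lists 234 neighbouring pairs were apart in all 6 libraries and 248 to 268 with a library left out, an alternative chosen after seeing the data. Leaving out mitochondrially encoded genes was not run, since none was listed. The unknown depth limits what can be said of genes near 1 RPKM.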

Other observations

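The following genes are in no list, or were picked from a list, because of their levels, which are given without a test. They form no fixed list. Top2a, the topoisomerase of dividing cells, was at 267 ± 7.91 and 225 ± 5.19 RPKM, Pcna, the sliding clamp of DNA replication, at 469 ± 11.3 and 533 ± 8.18 RPKM, and Mki67, the Ki-67 antigen, at 48.2 ± 1.89 and 38.6 ± 1.19 RPKM. Cdkn2a, the locus of the cell cycle inhibitors p16 and p19ARF, was at 119, 122 and 131 RPKM in 3NC and 111, 102 and 109 RPKM in 5NC, within a library 6.97 to 8.34 times its neighbour Cdkn2b. Cdkn1a, the inhibitor p21, was at 71.7, 69.7 and 71.7 RPKM in 3NC and 22.3, 19.9 and 20.9 RPKM in 5NC. Ccnd1, cyclin D1, was at 49.5 ± 0.651 and 28.7 ± 0.734 RPKM, and Rb1, the retinoblastoma protein, at 5.47 ± 0.391 and 7.47 ± 0.148 RPKM.

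Upk3b, a uroplakin family gene, was at 242, 233 and 244 RPKM in 3NC and 782, 789 and 804 RPKM in 5NC. Upk1b was at 54.3 ± 0.471 and 111 ± 3.51 RPKM, Msln, mesothelin, at 79.0 ± 1.19 and 92.8 ± 1.01 RPKM, and Podxl, podocalyxin, at 78.9 ± 1.10 and 165 ± 4.19 RPKM. Of these 4 genes Msln lay within the factor of 2 between the control groups. Gpm6a, a membrane glycoprotein, was at 28.8 ± 1.57 and 75.9 ± 2.43 RPKM and Lrrn4, a leucine-rich repeat membrane protein, at 1.21 ± 0.151 and 8.63 ± 0.518 RPKM. Tmsb4x, an actin-binding peptide, was at 376 ± 8.44 and 1057 ± 23.4 RPKM.

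Among partner genes, 2 ratios were picked because they were extreme. Type I collagen is usually built of Col1a1 and Col1a2 chains. Col1a1 was above 249 RPKM in every library and Col1a2 reached 0 to 0.58 RPKM, a ratio of at least 660 in the 5 libraries in which Col1a2 was above 0, and none (0%) of the 35-base words of either transcript stood in another gene. Krt18, which usually pairs with Krt8, was 29.9 to 52.4 times Krt8. Of the 35-base words, 34.3% of those of Krt8 and 7.41% of those of Krt18 stood in another gene, so this ratio is uncertain. Eif2s3y, a gene of the Y chromosome, was at 0 to 0.15 RPKM in these cells of a male lineage. No other gene of that chromosome is given here, and whether the cells keep it was not tested.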
